A study of Mus musculus with 6 samples.

Results

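The unfolded protein response genes examined here are 10 rows of the count table of mouse hypothalamus, taken by gene symbol, out of 50559 rows in all. They comprise the sensors Ern1, Eif2ak3 and Atf6, the transcription factors Xbp1, Atf4 and Ddit3, and the targets Hspa5, Sdf2l1, Herpud1 and Trib3. All 10 had enough reads to be tested, among 20257 tested genes. There were 3 hypothalamus libraries labelled SRC1 KO, a knockout of steroid receptor coactivator 1, and 3 labelled WT, wild type. The coactivator is encoded by Ncoa1 and binds nuclear receptors. The labels name neither the age, strain and sex of the mice, nor the allele, nor whether each library was 1 animal. P-values therefore rest on differences among libraries that may be only technical.

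The endoplasmic reticulum (ER) folds secreted and membrane proteins, and unfolded protein in its lumen activates a set of membrane sensors. IRE1, the product of Ern1, splices the Xbp1 messenger RNA into the form that encodes an active factor. PERK, the product of Eif2ak3, phosphorylates the initiation factor eIF2, which lowers general translation and raises translation of Atf4. ATF6 moves to the Golgi, where it is cut to release a transcription factor. In the hypothalamus the pathway is known from work on peptide-secreting neurons and on leptin resistance in obesity. Splicing of Xbp1, phosphorylation of PERK and cleavage of ATF6 are not seen in counts per gene, so the values below are levels of messenger RNA only.

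The factors of the pathway bind known promoter elements, and the promoters of 3 targets are shown first, since Hspa5 and Sdf2l1 had the lowest fold changes of the 10 genes and Hspa5 and Herpud1 carry matches before the start. ATF6 and XBP1 bind the ER stress response element, ERSE, whose parts CCAAT and CCACG stand 9 bases apart. ERSE-II has ATTGG and CCACG 1 base apart. The 250 bases before the start of transcription of these targets are from RefSeq (window table of GRCm38.p6) and were matched to GRCm39, at chr2:34661852-34662101 on the plus strand for Hspa5, chr8:95112807-95113056 on the plus strand for Herpud1 and chr16:16950248-16950497 on the minus strand for Sdf2l1. Capitals mark matches, which are ERSE in Hspa5 and, in Herpud1, first a composite site of ATF4 and C/EBP (TGATGNAAN, read on the opposite strand) and then ERSE-II.
Hspa5: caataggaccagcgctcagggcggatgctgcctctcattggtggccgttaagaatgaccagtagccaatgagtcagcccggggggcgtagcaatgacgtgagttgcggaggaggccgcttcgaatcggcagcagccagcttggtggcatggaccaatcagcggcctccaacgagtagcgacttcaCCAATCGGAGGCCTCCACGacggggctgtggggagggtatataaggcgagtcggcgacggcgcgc
Herpud1: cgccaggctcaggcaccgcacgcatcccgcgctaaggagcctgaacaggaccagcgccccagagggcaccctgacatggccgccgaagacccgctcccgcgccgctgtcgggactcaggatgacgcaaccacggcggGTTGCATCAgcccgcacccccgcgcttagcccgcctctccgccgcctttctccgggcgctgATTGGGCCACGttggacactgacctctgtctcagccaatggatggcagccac
Sdf2l1: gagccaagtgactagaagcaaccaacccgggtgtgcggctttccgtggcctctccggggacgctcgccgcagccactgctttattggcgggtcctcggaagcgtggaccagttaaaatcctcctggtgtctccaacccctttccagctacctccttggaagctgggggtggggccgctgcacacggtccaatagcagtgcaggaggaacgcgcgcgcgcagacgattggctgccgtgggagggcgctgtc

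Hspa5 held ERSE from base -65 to -47, counted from the start of transcription. Herpud1 held the composite site from -113 to -105 and ERSE-II from -52 to -42. The letters of ERSE, ERSE-II, the composite site and the XBP1 element UPRE (TGACGTGG) are not in this window of Sdf2l1. Windows of 300 bases, from 250 before to 50 after the start, were in the table for 9 of the 10 genes, all but Atf6, and both strands were searched for exact matches. Beside the sites above, Trib3 alone had a match, a composite site between bases 14 and 22 after the start. Over all 32851 windows, ERSE was in 0.119%, ERSE-II in 0.0365%, UPRE in 0.676% and the composite site in 3.95%. No match overlapped another in the 9 windows, and a match is a description of the letters, not a site shown to be bound.

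Library totals ran from 39341074 to 46755553 counts in the knockout and from 36613507 to 42191925 in wild type. Ncoa1 had 1692, 1478 and 1766 counts in the knockout and 5180, 4630 and 5406 in wild type, at a fold of 0.306. Mitochondrial genes took 4.77% to 5.08% of counts in the knockout and 4.23% to 4.51% in wild type. The hypothalamic markers Hcrt, Pmch, Avp, Oxt, Trh and Nkx2-1 had at least 638 counts each in every library. Several lists of marker genes of other cells differed in mean between the genotypes. For comparison, 0.834% of all tested genes passed the threshold, an adjusted p under 0.05 in edgeR. At an unadjusted p under 0.05 in edgeR, 7.21% of all tested genes were lower in the knockout and 5.75% higher. All 12 ependymal and tanycyte markers had lower means in the knockout, 7 of them past the threshold, with sums of 83.9 to 109 CPM (counts scaled to library size, with TMM factors) in the knockout and 230.0 to 235 CPM in wild type. All 12 oligodendrocyte markers had higher means, 6 past the threshold, with sums of 6748 to 9026 CPM in the knockout and 4154 to 5310 CPM in wild type. All 12 meningeal fibroblast markers had lower means, 1 past the threshold, with sums of 70.6 to 73.5 CPM in the knockout and 78.3 to 346 CPM in wild type. The wild-type sums were 197, 346 and 78.3 CPM in replicates 1 to 3, so wild-type replicate 3 lay near the knockout. Of 9 pituitary markers 7 were tested and 1, Pitx1, fell, with sums of 22.0 to 35.8 CPM in the knockout and 11.6 to 43.8 CPM in wild type, and Fshb had 0 counts in all 3 knockout libraries. Of 10 choroid plexus markers 9 were tested and none passed in edgeR, where 4 had an unadjusted p under 0.05, with sums of 62.7 to 87.0 CPM in the knockout and 90.8 to 123 CPM in wild type. None of the 12 neuron, 10 astrocyte, 10 microglia and 10 endothelium and pericyte markers passed in edgeR, where 3, 4, 2 and 2 had an unadjusted p under 0.05. These were all higher in the knockout, except 1 of the 4 astrocyte markers, which was lower. Log2 fold changes were above 0 for 10 of 12, 4 of 10, 7 of 10 and 8 of 10 in the same order. Growth hormone, Gh, had 280 counts in knockout replicate 1 and 477 in wild-type replicate 1, and at most 7 in any other library. The part of these cell differences in the results below was not tested.

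The chaperone gene Hspa5, its partner Sdf2l1 and the sensor Ern1 had lower levels in every knockout library than in any wild-type library, at folds of 0.851, 0.815 and 0.879, but no difference among the 10 genes passed the adjusted test. At an adjusted p under 0.05 in edgeR's quasi-likelihood test 0 of 10 passed, against 0.834% of all tested genes. DESeq2 and limma-voom also called 0 of 10. At an unadjusted p under 0.05 edgeR had 3 of 10 lower in the knockout, Hspa5, Sdf2l1 and Ern1, against 7.21% of all tested genes, and 0 of 10 higher, against 5.75%. In the same 3 genes every knockout library lay below every wild-type library, as in 9.03% of all genes. Eif2ak3 was the 1 gene with every knockout library above every wild-type library, as in 8.58% of all genes. The log2 fold changes of the 10, knockout over wild type, ran from -0.30 to 0.10 with 6 below 0. Their median was -0.083, beside 0.0042 for all tested genes. In bulk tissue, fewer cells of a type and less RNA per cell cannot be told apart.

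**Figure D1:**
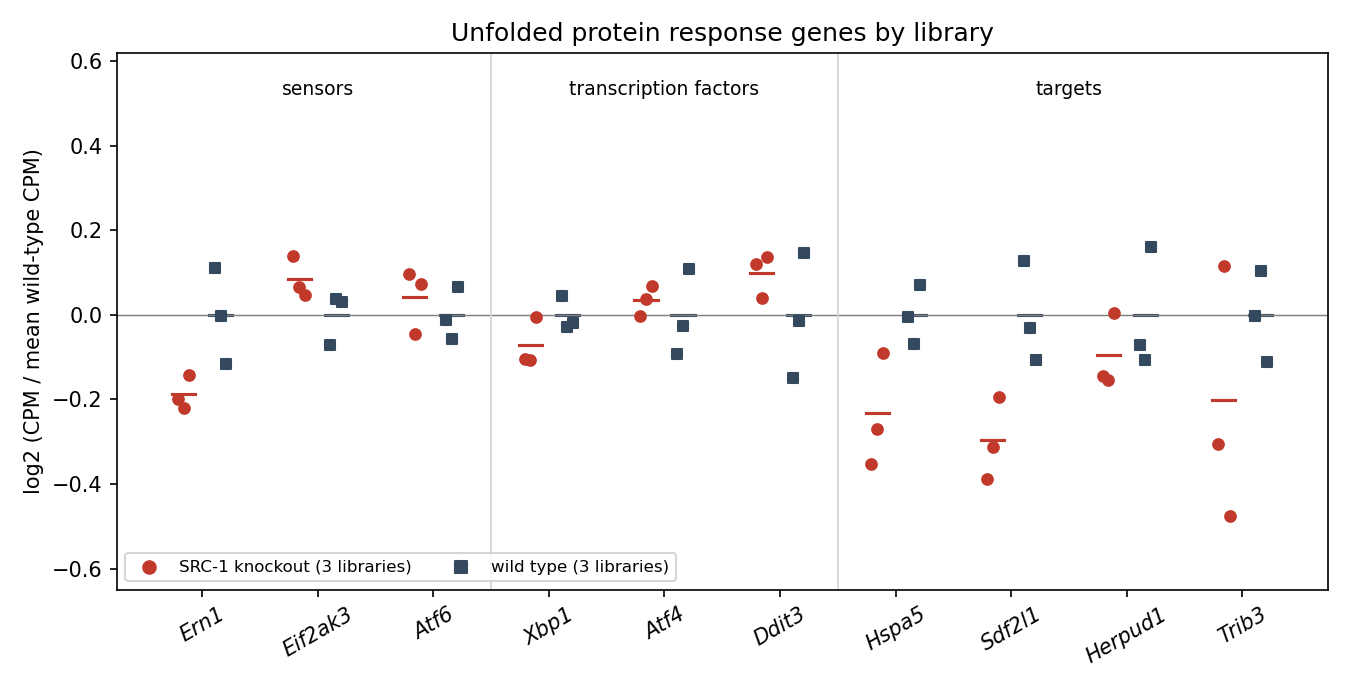
Each point is 1 library, as log2 of its CPM over the mean wild-type CPM of that gene (vertical axis), with knockout libraries as circles, wild-type libraries as squares and bars at the log2 of the group means. The knockout points of Hspa5, Sdf2l1 and Ern1 lie below all wild-type points, those of Eif2ak3 lie above, and the groups of the other 6 genes overlap.

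Levels are compared between genes as CPM per kilobase of exon. Hspa5 stood highest, at 94.4 ± 8.91 in the knockout and 111 ± 5.36 in wild type (SD, n = 3 each, here and below). Atf4 was at 51.0 ± 1.25 in the knockout and 49.8 ± 3.59 in wild type. Xbp1 followed at 40.2 ± 1.65 in the knockout and 42.2 ± 1.16 in wild type, and Herpud1 at 35.2 ± 2.21 in the knockout and 37.7 ± 3.90 in wild type. These messenger RNAs of the ER chaperone, the factors and a degradation component were more abundant per length than those of all 3 sensors.

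Ddit3 had 9.95 ± 0.350 CPM per kilobase in the knockout and 9.28 ± 0.953 in wild type. Eif2ak3 was at 6.39 ± 0.217 in the knockout and 6.03 ± 0.251 in wild type, and Atf6 at 5.84 ± 0.301 in the knockout and 5.67 ± 0.249 in wild type. The cochaperone partner Sdf2l1 was near both sensors, at 5.18 ± 0.353 in the knockout and 6.36 ± 0.533 in wild type. Ern1 was lower, at 3.06 ± 0.0872 in the knockout and 3.48 ± 0.273 in wild type, and Trib3 lowest, at 0.375 ± 0.0818 in the knockout and 0.431 ± 0.0323 in wild type. In that order, the library ranges of neighbours overlapped between Atf6 and Sdf2l1 in the knockout. In wild type they overlapped between Xbp1 and Herpud1, between Sdf2l1 and Eif2ak3, and between Eif2ak3 and Atf6. Sdf2l1 was sixth in wild type and eighth in the knockout. The level of Hspa5 is understated per length, because 33.6% of its exonic bases are shared with Rabepk and reads that fall on both genes were not counted. That share was 5.82% for Ddit3 (with Mars1 and Mbd6), 3.8% for Atf6 (with Gm9929) and 0 for the other 7.

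**Figure D2:**
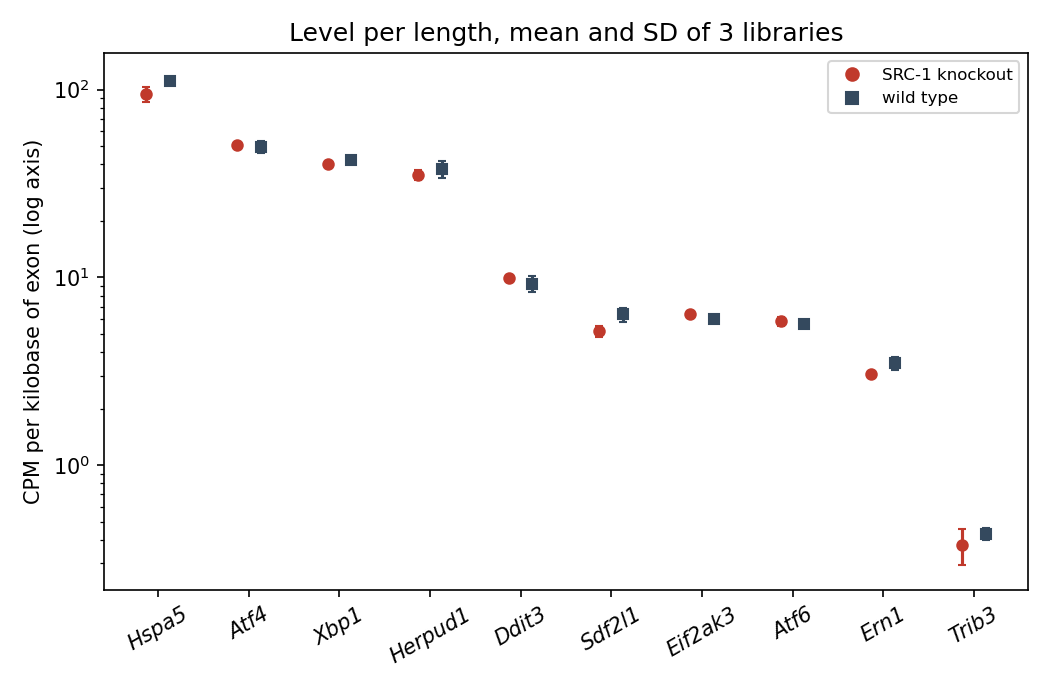
Mean level of each gene in CPM per kilobase of exon on a log axis, with SD over 3 libraries as bars, for knockout (circles) and wild type (squares). The genes are ordered by their wild-type level, from Hspa5 at 111 to Trib3 at 0.431.

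Among the sensors, Ern1 (chromosome 11, 106285474 to 106378701, minus strand, GRCm39) had 21.3, 21.0 and 22.2 CPM in knockout replicates 1 to 3 and 26.4, 24.4 and 22.6 CPM in wild-type replicates 1 to 3. The groups did not overlap, and the nearest libraries, knockout 3 and wild type 3, were 22.2 and 22.6 CPM. The log2 fold change was -0.19 ± 0.079 (SE, 95% interval -0.36 to -0.012), with an unadjusted p of 0.0386 and an adjusted p of 0.347 in edgeR. Without wild-type replicate 1, the library with the most Gh counts, it was -0.13 with an adjusted p of 0.736.

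Eif2ak3 (chromosome 6, 70821468 to 70882225, plus strand) had 32.3, 30.7 and 30.3 CPM in the knockout and 27.9, 30.1 and 29.96 CPM in wild type. All knockout libraries were above all wild-type ones, with 0.201 CPM between the nearest. Its log2 fold change was 0.085 ± 0.068 (SE, 95% interval -0.066 to 0.24), with an adjusted p of 0.698 in edgeR. Ern1 and Eif2ak3 encode sensor kinases of separate branches and lay on opposite sides of 0, and the difference between their changes was not tested.

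Atf6 (chromosome 1, 170532026 to 170696414, minus strand) had 49.6, 45.0 and 48.8 CPM in the knockout and 46.0, 44.6 and 48.6 CPM in wild type. The groups overlapped over nearly their whole range. Its log2 fold change was 0.043 ± 0.069 (SE, 95% interval -0.11 to 0.20), with an adjusted p of 0.872 in edgeR.

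Among the transcription factors, Xbp1 (chromosome 11, 5470641 to 5475993, plus strand), counted without regard to splicing by IRE1, had 88.2, 88.1 and 94.6 CPM in the knockout and 97.8, 93.0 and 93.6 CPM in wild type. Knockout replicate 3 lay within the wild-type range and the other 2 knockout libraries below it. The log2 fold change was -0.070 ± 0.063 (SE, 95% interval -0.21 to 0.069), with an adjusted p of 0.737 in edgeR.

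Atf4 (chromosome 15, 80139385 to 80141746, plus strand), which drives amino acid synthesis and transport genes, had 85.9, 88.3 and 90.2 CPM in the knockout and 80.7, 84.6 and 92.8 CPM in wild type. The knockout range lay inside the wild-type range. The log2 fold change was 0.034 ± 0.070 (SE, 95% interval -0.12 to 0.19), with an adjusted p of 0.902 in edgeR.

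Ddit3 (chromosome 10, 127126662 to 127132160, plus strand) encodes CHOP, a factor that promotes cell death under lasting stress. It had 25.7, 24.3 and 25.9 CPM in the knockout and 21.3, 23.4 and 26.1 CPM in wild type. Wild-type replicate 3 was above all knockout libraries and the other 2 wild-type libraries were below them. The log2 fold change was 0.10 ± 0.086 (SE, 95% interval -0.090 to 0.29), with an adjusted p of 0.722 in edgeR.

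**Figure D3:**
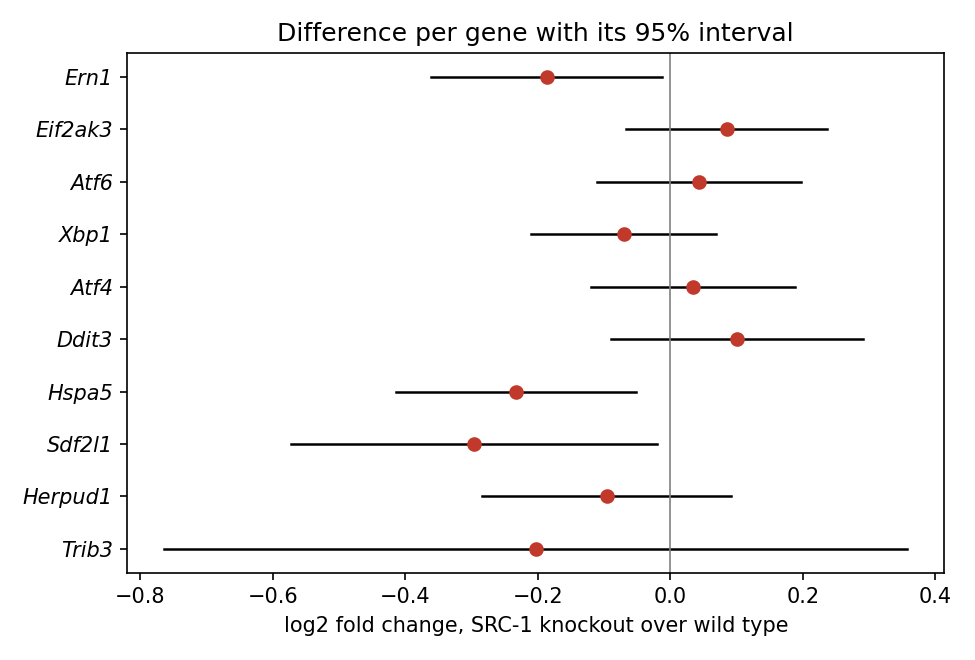
Log2 fold change of each gene, knockout over wild type (horizontal axis), with its 95% interval from the quasi-likelihood fit as a line. The intervals of Ern1, Hspa5 and Sdf2l1 lie below 0 before adjustment over all genes, and that of Trib3 is the widest.

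All 4 targets had a log2 fold change below 0. Hspa5 (chromosome 2, 34662102 to 34666541, plus strand) encodes BiP, the main chaperone of the ER lumen, which also holds the sensors inactive. It had 227, 241 and 273 CPM in the knockout and 289, 277 and 305 CPM in wild type. Knockout replicate 3 came within 4.08 CPM of wild-type replicate 2, and the other 2 knockout libraries stood further below. The fold was 0.851 (95% interval 0.751 to 0.965), a log2 fold change of -0.23 ± 0.082 (SE), with an unadjusted p of 0.0169 and an adjusted p of 0.245 in edgeR. Rabepk, whose exons overlap it, had 18.5 ± 0.843 CPM in the knockout and 16.8 ± 0.960 CPM in wild type (SD, n = 3 each), with an adjusted p of 0.553 in edgeR.

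Sdf2l1 (chromosome 16, 16948002 to 16950247, minus strand), a partner of the BiP co-chaperones, had 5.39, 5.67 and 6.16 CPM in the knockout and 7.70, 6.89 and 6.55 CPM in wild type. The groups did not overlap, and the nearest libraries were knockout 3 and wild type 3. The fold was 0.815 (95% interval 0.673 to 0.987), a log2 fold change of -0.30 ± 0.12 (SE), with an unadjusted p of 0.0383 and an adjusted p of 0.346 in edgeR. Without wild-type replicate 1 the log2 fold change was -0.23 for Sdf2l1, with an adjusted p of 0.714, and -0.24 for Hspa5, with an adjusted p of 0.471.

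Herpud1 (chromosome 8, 95113057 to 95121999, plus strand) is a membrane component of ER-associated degradation. It had 69.5, 69.0 and 77.0 CPM in the knockout and 73.1, 71.3 and 85.9 CPM in wild type. Knockout replicate 3 lay above 2 of the wild-type libraries. The log2 fold change was -0.096 ± 0.085 (SE, 95% interval -0.28 to 0.092), with an adjusted p of 0.735 in edgeR.

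Trib3 (chromosome 2, 152179345 to 152185980, minus strand) encodes a pseudokinase induced by ATF4 and CHOP. It was barely expressed, with 30, 38 and 29 counts in the knockout and 36, 36 and 34 counts in wild type. Knockout replicate 2 was the highest of the 6 libraries, also in CPM. The log2 fold change of -0.20 ± 0.25 (SE) had a 95% interval of -0.76 to 0.36 and an adjusted p of 0.823 in edgeR, so at this depth a fold between 0.589 and 1.28 was within the error. For the other 9 genes the counts were 225 or more per library and the intervals narrower.

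The genes did not share a single order of libraries. Among the knockout libraries, replicate 3 was highest for 7 of the 10 genes, replicate 1 for 2 and replicate 2 for 1. Among the wild-type libraries, replicate 3 was highest for 5, replicate 1 for 3 and replicate 2 for 2. Over the 6 libraries, the genes whose log2 CPM was most like that of Hspa5 were Tmem176a, Kcne1l and Fhad1, with Pearson's r of 0.996, 0.993 and 0.992. Among those most like Atf4 were Cpped1 and Pcp4, with 0.995 and 0.991. The search covered 10696 genes with a mean of at least 10 CPM. The genes named were among the highest found, over only 6 libraries of 2 genotypes, so r is a description only.

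The wider response was followed in 5 lists of genes beyond the 10. None of the 89 tested members passed in edgeR at an adjusted p under 0.05, whereas 9 (10.1%) had an unadjusted p under 0.05 and a lower mean, beside 7.21% of all tested genes, and 1 (1.12%) a higher mean, beside 5.75%. Chaperones and folding enzymes of the ER had the lowest median log2 fold change, -0.15, with 16 of 20 below 0, beside 48.9% of all tested genes. Of these 20, 4 were lower at an unadjusted p under 0.05, beside the same 7.21% of all tested genes. Pdia6, a disulfide isomerase that associates with BiP, averaged 117 CPM in the knockout and 140 CPM in wild type (log2 fold change -0.26 ± 0.084, SE, adjusted p 0.197 in edgeR). Its libraries were 109, 112 and 129 CPM in the knockout and 146, 128 and 145 CPM in wild type, so the groups overlapped by 1 pair. The isomerase Pdia4 had 49.7, 49.1 and 51.1 CPM in the knockout and 65.1, 54.1 and 55.0 CPM in wild type, without overlap (adjusted p 0.276 in edgeR). Dnajc3, a co-chaperone of BiP that also inhibits eIF2 kinases, had 74.9, 70.0 and 78.1 CPM in the knockout and 85.3, 84.6 and 79.7 CPM in wild type, also without overlap (adjusted p 0.332 in edgeR). Sil1, the nucleotide exchange factor of BiP, had a log2 fold change of -0.20 ± 0.090 (SE, adjusted p 0.375 in edgeR).

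Genes of ER-associated degradation lay closer to 0, with a median of -0.035 and 12 of 17 below 0. Derl1, a channel component, had 85.4, 87.4 and 99.5 CPM in the knockout and 104, 101 and 103 CPM in wild type, without overlap (log2 fold change -0.18 ± 0.072, SE, adjusted p 0.317 in edgeR). Edem1, a lectin that targets misfolded glycoproteins, was on the other side of 0 at 0.15 ± 0.089 (SE, adjusted p 0.534), as was the conjugating enzyme Ube2j1 at 0.096 ± 0.067 (adjusted p 0.631 in edgeR). The signal peptide peptidase H13 was at -0.084 ± 0.068 (SE, adjusted p 0.702 in edgeR).

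Targets of the integrated stress response, the program that ATF4 carries out, had a median of -0.014 with 13 of 22 tested members below 0. Ppp1r15a, which encodes GADD34 and restores translation by removing the phosphate from eIF2, had 12.9, 12.6 and 14.6 CPM in the knockout and 14.9, 15.9 and 16.7 CPM in wild type, without overlap (log2 fold change -0.25 ± 0.092, SE, adjusted p 0.280 in edgeR). The factor Atf3 averaged 0.753 CPM in the knockout and 1.32 CPM in wild type, with overlapping groups and an adjusted p of 0.419 in edgeR. Nupr1, a stress-induced chromatin protein, had 1.86, 2.57 and 2.19 CPM in the knockout and 3.33, 7.98 and 2.21 CPM in wild type (adjusted p 0.465 in edgeR). Its highest library, wild-type replicate 2, was also the highest in meningeal fibroblast markers, at 346 CPM summed. A link between them was not tested. Psat1, an enzyme of serine synthesis that ATF4 induces, had a log2 fold change of 0.15 ± 0.081 (SE, adjusted p 0.481 in edgeR).

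Other sensors, kinases and regulators had a median of 0.0072, with 9 of 20 below 0. Eif2ak2, the kinase PKR that senses double-stranded RNA, had 9.03, 8.39 and 10.1 CPM in the knockout and 10.5, 13.05 and 10.6 CPM in wild type, without overlap (log2 fold change -0.31 ± 0.12, SE, adjusted p 0.301 in edgeR). Creb3l1 (-0.33 ± 0.15) and Creb3l4 (-0.52 ± 0.28), both membrane-bound factors related to ATF6, had adjusted p of 0.404 and 0.496 in edgeR. Mbtps1, the protease that makes the first cut in ATF6, was at -0.11 ± 0.067 (adjusted p 0.585 in edgeR).

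Cell death genes of ER stress had a median of -0.011 with 5 of 10 below 0. Casp12, a caspase of the ER membrane in rodents, had 0.715, 0.882 and 0.570 CPM in the knockout and 1.27, 1.51 and 1.06 CPM in wild type. The groups did not overlap, with a log2 fold change of -0.83 ± 0.26 (SE) and an adjusted p of 0.185 in edgeR. Mapk8, the kinase JNK1, was the 1 gene of the lists with an unadjusted p under 0.05 and a higher mean, at 82.3, 82.9 and 85.3 CPM in the knockout and 71.7, 77.1 and 71.5 CPM in wild type (adjusted p 0.224 in edgeR). Map3k5, the kinase ASK1 upstream of JNK, was at -0.37 ± 0.13 (SE, adjusted p 0.288) and Bcl2l11, the death factor BIM, at -0.10 ± 0.13 (adjusted p 0.823 in edgeR).

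**Figure D4:**
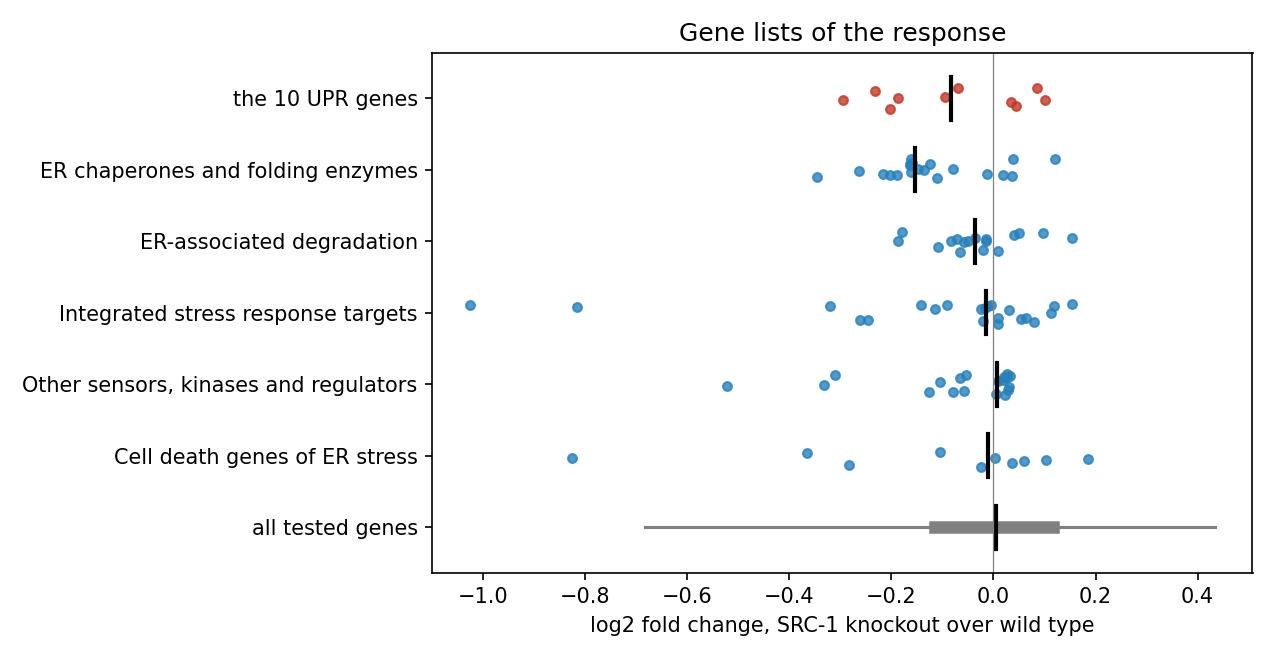
Log2 fold changes, knockout over wild type (horizontal axis), of the 10 genes and the 5 lists, 1 point a gene and black bars at the medians. The grey bar and line give the middle 50% and 90% of all tested genes, and the chaperone list has its median at -0.15, beside 0.0042 for all genes.

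Genes of these lists share ERSE with Hspa5, a grouping made with the fold changes known. The element was found in the promoter windows of 9 list members, 7 of them chaperones or folding enzymes and 2 of ER-associated degradation. Windows were available for 16 of 20 and 12 of 17 listed genes of these 2 lists. They were available for 20 of 25 integrated stress response targets, 15 of 20 other regulators and 8 of 10 cell death genes. Listed genes without a window were not searched. Of all 32851 windows, 0.119% held ERSE. The matched letters of Hspa5 and of these genes are given because they are what the genes share beside their function, with CCAAT and CCACG in capitals, and Hsp90b1 carries it at a distal and a proximal position.
Hspa5: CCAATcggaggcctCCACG
Calr: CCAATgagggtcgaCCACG
Canx: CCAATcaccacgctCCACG
Creld2: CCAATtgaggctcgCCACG
Derl3: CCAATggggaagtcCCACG
Dnajc3: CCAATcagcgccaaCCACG
Ero1b: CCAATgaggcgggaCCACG
Hsp90b1 distal: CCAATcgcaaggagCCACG
Hsp90b1 proximal: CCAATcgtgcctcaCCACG
Pdia6: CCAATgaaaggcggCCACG
Syvn1: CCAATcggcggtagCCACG

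All 10 of these genes, Hspa5 among them, had a log2 fold change below 0, beside 48.9% of all tested genes. Their median was -0.16 and their range -0.26 to -0.012. In the whole chaperone list, from which most of them come, 16 of 20 were below 0. Outside the lists, 7 of the 12 tested genes with ERSE were below 0, with a median of -0.0068. Of the 20 listed chaperones and folding enzymes, 16 had a promoter window to search. The 13 in which no ERSE was found, which include those without a window, had a median of -0.15, with 9 of 13 below 0. Genes without a window were not searched, and whether the element bears on these levels was not tested. Among the 10 genes with the element printed above, Pdia6 was the lowest at -0.26. Canx, a lectin chaperone at 598 CPM in the knockout and 603 CPM in wild type, was nearest to 0. At an unadjusted p under 0.05, 3 of the 10 were lower, Hspa5, Pdia6 and Dnajc3, beside 7.21% of all tested genes, and no gene of the 10 passed at an adjusted p under 0.05 in edgeR. Hsp90b1, the ER form of HSP90, averaged 500.3 CPM in the knockout and 546 CPM in wild type (adjusted p 0.564 in edgeR), and Calr, calreticulin, 331 CPM in the knockout and 350 CPM in wild type (adjusted p 0.738 in edgeR). The chromosomes and positions of the printed matches in GRCm39 were chr2:34662037-34662055 for Hspa5, chr8:85573704-85573722 for Calr, chr11:50216627-50216645 for Canx, chr15:88703723-88703741 for Creld2 and chr10:75729076-75729094 for Derl3. They were chr14:119175239-119175257 for Dnajc3, chr13:12580563-12580581 for Ero1b, chr10:86541502-86541520 and chr10:86541397-86541415 for Hsp90b1, chr12:17316492-17316510 for Pdia6 and chr19:6096562-6096580 for Syvn1. The strand is plus for Hspa5, Calr, Dnajc3, Pdia6, Syvn1 and the proximal match of Hsp90b1, and minus for the others.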

How the data were processed

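The authors deposited raw counts of read pairs per gene for 6 libraries, not normalized. Alignment to GRCm39 was by STAR 2.7.10a, per the submitters' processing notes, and counted over exons of the RefSeq annotation of mm39 by featureCounts, per the file headers (version 2.0.0 there, 2.0.3 in the processing notes). Neither strand, multi-mapping nor multi-gene counting was set, so reads shared by overlapping genes on either strand, or by near-identical copies, were left out, and antisense reads cannot be told apart. Gene length is the merged exon length that the deposited table gives. The table had 0 unused value columns.

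All 20257 genes passing edgeR's default filter (minimum count 10) were fitted with edgeR 4.0.16 in R 4.3.3: TMM scaling, robust dispersion, quasi-likelihood F-test on genotype, Benjamini-Hochberg adjustment, threshold 0.05. Each standard error was derived from the fold change and its F statistic, and 95% intervals use the fit's degrees of freedom. CPM is TMM-normalised. No pair of replicates agreed within sampling noise (chi-square per degree of freedom 8.87 to 18.9 within groups). Groups of 3 against 3 cannot go below an exact permutation p of 0.1, so none was computed.

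The members and lists were chosen with earlier results of these data known. Beside the 10 genes and Ncoa1, the genes named were the 4 of each list with the lowest p and the 3 most correlated with Hspa5 and with Atf4, of which 1 is not reported here. Fshb, Gh, Pitx1, Rabepk, the hypothalamic markers and the genes with ERSE were named after their values were seen. Of 92 listed genes, 4 were found under an older symbol, 1 was not matched and 2 had too few counts. Alternatives were other scalings and filters, each library left out, a replicate block, DESeq2 1.42.0 and limma-voom (limma 3.58.1). A fit without both first-numbered libraries was added after seeing the data.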

Additional observations from a re-analysis of the deposited data

How the results depend on the processing

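Of the 10 genes, 0 passed the adjusted threshold under each of the 14 alternatives. Hspa5 had an adjusted p between 0.0987, without knockout replicate 3, and 0.999, without both first-numbered libraries. In those 14, Hspa5, Sdf2l1, Ern1, Xbp1, Herpud1, Eif2ak3, Atf6 and Ddit3 kept the sign of their log2 fold change, as did Trib3 in the 13 that tested it. Atf4 was between -0.011, below 0 without wild-type replicate 1, and 0.094 with 1 library left out. An unadjusted p under 0.05 was reached by Hspa5 in 10, Ern1 in 8 and Sdf2l1 in 7 of the 14, and by 0 of the 10 genes without knockout replicate 1, knockout replicate 2 or both first-numbered libraries. Over all genes, 169 passed in the main fit, and 66 with library totals alone, 966 with no filter, 84 with at least 1 CPM in at least 3 libraries, 825 with DESeq2, 103 with limma-voom and 29 without both first-numbered libraries, a fit chosen after seeing the data. With 1 library left out the count over all genes ran from 36 (without knockout replicate 1) to 260 (without knockout replicate 2), with 69 without wild-type replicate 1. The cause was not tested. Deviations from the group mean had correlations of -0.21, 0.35 and 0.22 between same-numbered libraries of the 2 groups. With 3 libraries a group, deviations from their own mean are tied to one another, so these values cannot show whether the numbers pair the libraries. The replicate block gave 155 calls over all genes and 0 among the 10. At 29 to 38 counts per library, depth limits Trib3.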

Other observations

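Outside the lists, 12 further tested genes held ERSE in their promoter window. Of these 12, 7 had a log2 fold change below 0, with a median of -0.0068 and a range of -0.23 to 0.41. The acetyl-CoA carboxylase gene Acacb was the 1 with every knockout library below every wild-type library, at 13.9 CPM in the knockout and 16.2 CPM in wild type (log2 fold change -0.23 ± 0.099, SE, adjusted p 0.365 in edgeR). The imprinting regulator Zfp57 stood on the other side, at 40.1 CPM in the knockout and 32.2 CPM in wild type (0.32 ± 0.14, adjusted p 0.393 in edgeR). The same match lay in the windows of both Creld2 and Alg12, at -0.19 and 0.051, and another in those of both Gm39859 and Hnrnpa3, at -0.0073 and -0.016. Over all 22 tested genes with ERSE 17 were below 0.

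The median log2 fold change was -0.087 over all 22 tested genes with ERSE, -0.037 over 9 tested genes with ERSE-II, 0.0023 over 138 with UPRE and 0.0061 over 433 with the composite site. It was 0.0042 over all tested genes. The genes of a group are not independent, and no test of the groups was made.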
